A study of Mus musculus with 8 samples.

Results

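The genes described here are the 4 adult hemoglobin genes of the mouse, Hba-a1 and Hba-a2 (alpha globin) and Hbb-bs and Hbb-bt (beta globin), together with Alas2, the erythroid form of the first enzyme of heme synthesis. They are 5 of the 17710 genes that could be matched between the tables of this series, and they were picked by name, with earlier results of these libraries known, as a measure of the blood in each library. Their own levels are therefore given as a description, without a test. The 8 RNA-seq libraries, all from hippocampus of C57BL/6 mice, form 4 groups of 2: mice in which CRISPR removed Pyk2 (KO), mice whose Pyk2 carries the CRISPR-made Y402F substitution at its autophosphorylation site (Y402F), and wild-type mice as KO controls and as Y402F controls. The gene for Pyk2, a tyrosine kinase, is Ptk2b, and the series asks how it acts in contextual fear memory and whether autophosphorylation is needed. The labels describe all of the mice, the wild-type ones included, as transgenic, and do not give the part of Ptk2b removed, the age, the sex, the number of founder lines or the animals per library. Spread between the 2 libraries of a group may therefore be partly technical.

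Hemoglobin is a tetramer of alpha and beta globin chains, each holding a heme group, and its messenger RNA is made in great excess by erythroid cells and kept in reticulocytes, the youngest circulating red cells. Heme is built in steps that begin with 5-aminolevulinate synthase, encoded by Alas2 in erythroid cells and by Alas1 in most other cells, and end when ferrochelatase inserts iron. In brain tissue, globin RNA comes largely from blood left in the vessels, although low globin expression in neurons and glia has been described. In a bulk library, fewer cells of a type and less RNA per cell cannot be told apart.

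All levels below are FPKM (fragments per kilobase of transcript, relative to library size) as deposited, divided by a factor for each library that sets the typical gene equal, and are called scaled FPKM. The mutant tables also hold expected counts, which are estimated reads per gene and summed to 5756180 and 5965760 in the KO libraries and 5825060 and 6017220 in the Y402F libraries. The control tables hold FPKM without counts, so their depth is unknown. Since all mutants come from one kind of table and all controls from the other, genotype and processing cannot be told apart in any comparison of a mutant with its controls. As scaled FPKM, Ptk2b stood at 56.1 and 68.7 in both KO libraries and between 308 and 396 in the other 6. The 12 hippocampal neuron markers listed were all measured, and their summed level was 3820 to 3902 scaled FPKM in the mutants and 3032 to 3156 in the controls, without overlap. Ddx3y, a gene of the Y chromosome, stood at 4.74 to 5.77 scaled FPKM in KO library 2, Y402F library 2 and both Y402F controls, and at 0.0419 to 0.0695 in the other 4 libraries. Libraries thus differ in apparent sex within each mutant group and between the control groups.

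The copies of each globin lie close together and are nearly the same in sequence. On GRCm38, Hba-a1 (ENSMUSG00000069919) lies at chr11:32283511-32284465 and Hba-a2 (ENSMUSG00000069917) at chr11:32296489-32297298, both on the plus strand. Hbb-bs (ENSMUSG00000052305) lies at chr7:103826534-103828096 and Hbb-bt (ENSMUSG00000073940) at chr7:103812524-103813996, both on the minus strand. Each of the 4 genes has 3 exons in the GENCODE M21 transcript used here. The coding sequences of the alpha copies were identical at 425 of 426 bases, and those of the beta copies at 440 of 441. The coding bases around the difference are shown because they are the only coding letters by which a read can be placed in one copy of a pair. The capital marks the base that differs, 5′ to 3′, at coding positions 361 to 401 for alpha and 397 to 437 for beta.
Hba-a1: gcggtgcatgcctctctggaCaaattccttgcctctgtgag
Hba-a2: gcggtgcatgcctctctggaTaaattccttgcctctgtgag
Hbb-bs: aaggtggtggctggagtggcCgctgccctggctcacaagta
Hbb-bt: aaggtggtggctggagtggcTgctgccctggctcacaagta
Counted from the first base of the start codon, the differences are C381T from Hba-a1 to Hba-a2 and C417T from Hbb-bs to Hbb-bt, each at position 3 of its codon. Of all 50-base stretches of the coding sequence, 87.8% of the alpha copies' and 93.6% of the beta copies' occur unchanged in the other copy. Over whole transcripts, noncoding ends included, the shared part was 67.5% for Hba-a1, 86.9% for Hba-a2, 65.8% for Hbb-bs and 58.3% for Hbb-bt. No source used here gives the read length. The alpha and beta coding sequences were identical in 56.9% of aligned columns, so they are far less alike.

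Hba-a1 was high in the mutants. Its scaled FPKM was 115 and 190 in the KO libraries, 118 and 163 in the Y402F libraries, 113 and 129 in the KO controls, and 61.3 and 66.6 in the Y402F controls. The KO values overlapped those of their controls, while both Y402F values lay above both Y402F controls, with means of 141 ± 32.3 and 63.9 ± 3.74 (SD, n = 2 each), a ratio of 2.20.

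Hba-a2 was low in the mutants instead. Its scaled FPKM values were 34.7 and 28.5 in KO, 9.10 and 15.4 in the Y402F libraries, 133 and 142 in the KO controls, and 66.8 and 67.7 in the Y402F controls. All 4 mutant values lay below all 4 control values. The log2 difference was -2.12 for KO against KO controls and -2.45 for Y402F against Y402F controls, with a within-group SD of 0.15 and 0.38 on that scale. Hba-a2 was also the one member whose KO and Y402F values did not overlap, at 31.6 ± 4.35 and 12.3 ± 4.48 scaled FPKM (SD, n = 2 each). How many of all genes separate in these ways was not counted. Of all genes tested, 37.6% differed between KO and its controls by limma at an adjusted p below 0.05. Between Y402F and its controls, 32.3% did.

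Hbb-bs was the most abundant member in every library. Its scaled FPKM was 186 and 235 in the KO libraries, 140 and 199 in the Y402F libraries, 226 and 205 in the KO controls, and 118 and 125 in the Y402F controls. KO and its controls overlapped, with a log2 difference of -0.03, and Y402F lay above its controls by 0.48. The scaled FPKM of Hbb-bt came to 23.8 and 42.3 in KO, 13.7 and 30.4 in the Y402F libraries, 105 and 102 in the KO controls, and 56.3 and 57.4 in the Y402F controls. Like Hba-a2, it was lower in all 4 mutants than in all 4 controls, with log2 differences of -1.65 in the KO line and -1.37 in the Y402F line. As for Hba-a2, the share of all genes that separate in this way was not counted.

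**Figure D1:**
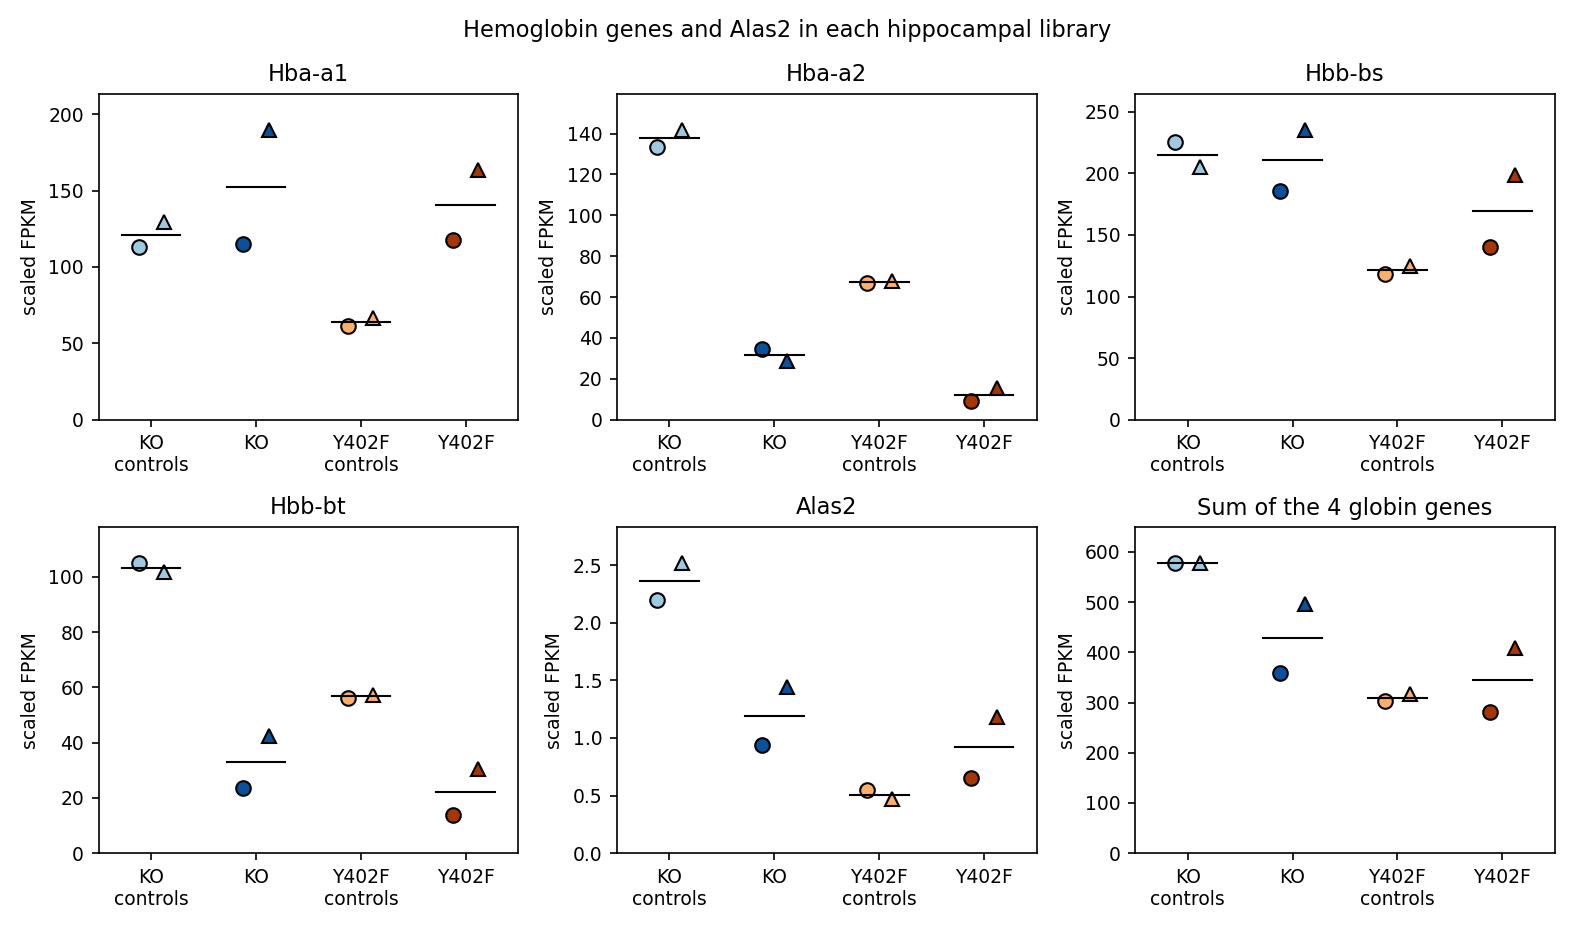
Scaled FPKM (vertical axis, from 0) of each hemoglobin gene, Alas2 and the sum of the 4 globin genes by group; circles are replicate 1, triangles replicate 2, and lines the mean of 2 libraries. Hba-a2 and Hbb-bt lie lower in all 4 mutant libraries than in all 4 controls, while the sum ranges from 281 to 496 in the mutants and from 303 to 578 in the controls.

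The copies of a pair were thus split differently in the 2 kinds of table. Hba-a1 held 76.9 and 86.9% of the alpha signal in the KO libraries and 92.8 and 91.4% in the Y402F libraries, against 45.9 to 49.6% in the 4 controls. Hbb-bs held 84.8 to 91.1% of the beta signal in the mutants and 66.8 to 68.5% in the controls. The ranges of mutants and controls did not overlap for either pair. Within the control tables the split was nearly constant, although the Y402F controls held far less globin than the KO controls. In the mutant tables the expected counts of single copies were mostly fractional, such as 342.43 for Hba-a1 and 106.57 for Hba-a2 in KO library 1. Their sum was a whole number, 449, 667, 378 and 553 for alpha and 706, 957, 518 and 800 for beta in KO libraries 1 and 2 and Y402F libraries 1 and 2. Reads that fit both copies had therefore been divided between them in those tables, and single-copy values are uncertain in both kinds of table. No source used here says how the control tables divided such reads. The pair sums do not depend on that division as long as each read is counted once, apart from the length used for each copy, and the comparisons below use them.

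**Figure D2:**
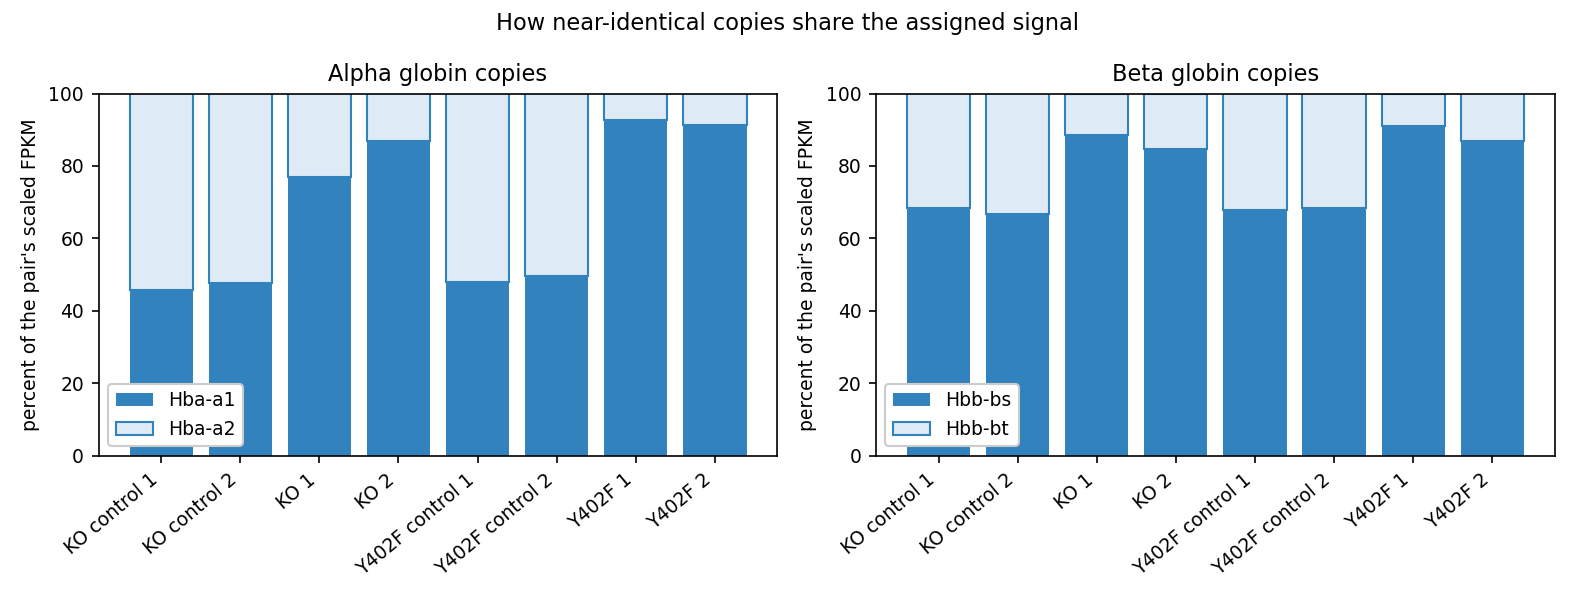
Share of each globin pair's scaled FPKM (percent, vertical axis) given to Hba-a1 and Hbb-bs (dark) and to Hba-a2 and Hbb-bt (light) in each of the 8 libraries. Hba-a1 takes 45.9 to 49.6% in the controls and 76.9 to 92.8% in the mutants, and Hbb-bs 66.8 to 68.5% and 84.8 to 91.1%.

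In scaled FPKM, summed adult globin came to 360 and 496 in KO, 281 and 408 in the Y402F libraries, 577 and 578 in the KO controls, and 303 and 316 in the Y402F controls. The KO controls were the highest group at 577 ± 0.216, followed by KO at 428 ± 96.4, Y402F at 344 ± 90.0 and Y402F controls at 309 ± 9.76 (mean ± SD, n = 2 each). The KO values overlapped those of Y402F, and the Y402F values enclosed those of the Y402F controls, so these neighbours in the order did not differ beyond their spread. The KO controls lay above all 6 other libraries.

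The widest difference lay between the wild-type groups. The KO controls held 1.87 times the adult globin of the Y402F controls, a log2 difference of 0.90 against a within-group SD of 0.03. Alpha and beta showed it alike, at 259 ± 17.3 against 131 ± 4.37 for alpha and 319 ± 17.1 against 178 ± 5.39 scaled FPKM for beta (SD, n = 2 each). On the log2 scale the within-group SD was 0.08 for alpha and 0.06 for beta, wider than that of the sum. From KO control 1 to 2, alpha went from 247 to 271 and beta from 331 to 306 scaled FPKM, which offset each other in the sum. Each of the 4 globin genes was higher in both KO controls than in both Y402F controls. What share of all genes separates the controls in this way was not counted. Over all genes tested, 8.06% were called between the control groups, 4.87% as higher and 3.19% as lower in the KO controls. When libraries were rescaled to equal totals, a setting governed by the short noncoding RNA Bc1, the log2 difference was 0.27, and the median of all genes tested moved to -0.51.

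KO against its controls gave a ratio of 0.741 for the globin sum, a log2 difference of -0.43 with a within-group SD of 0.23. Both KO libraries were below both controls. The difference was -0.68 without KO library 2 and -0.22 without KO library 1, and -0.15 after quantile normalization. Under equal totals it was 1.39, with the median of all genes at 1.51. Y402F against its controls gave a ratio of 1.11, a log2 difference of 0.15 with a within-group SD of 0.27. One Y402F library was below and the other above both controls, and without Y402F library 2 the difference was -0.14. On this scaling, the controls that each mutant is set against differ from each other by more than either mutant does from its own.

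KO against Y402F compares libraries of the same kind of table. The ratio of the globin sum was 1.24, a log2 difference of 0.31 that was smaller than the within-group SD of 0.36, and the groups overlapped. Leaving out single libraries gave 0.06 to 0.61. In expected counts, globin reads made up 0.0201% of KO library 1 (Wilson 95% interval 0.0189 to 0.0213), 0.0272% of KO library 2 (0.0259 to 0.0286), 0.0154% of Y402F library 1 (0.0144 to 0.0164) and 0.0225% of Y402F library 2 (0.0213 to 0.0237). These intervals cover counting error only. Library 2 of each mutant group held more globin than library 1, by 1.38 times in KO and 1.45 times in Y402F, which is more than the ratio of the group means. The controls of a group differed by 1.00 and 1.05 times. In both mutant groups library 2 is also the one with Ddx3y, and in Y402F the one with choroid plexus genes. The part of either in the globin level was not tested.

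Alpha and beta globin kept nearly the same proportion in all libraries. The ratio of alpha to beta FPKM was lowest at 0.715 in KO library 1 and highest at 0.884 in KO control 2. Group means ran from 0.736 ± 0.00229 in the Y402F controls to 0.815 ± 0.0980 in the KO controls (SD, n = 2), so the groups differed by less than the spread within the KO controls. With mutants and controls centred separately, the log2 alpha and beta sums had a Pearson r of 0.97 over the 8 libraries, which share their scaling.

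Alas2 (ENSMUSG00000025270, chrX:150547375-150570638 on GRCm38, plus strand) was present at a very low level. Its scaled FPKM values were 0.943 and 1.44 in KO, 0.656 and 1.18 in the Y402F libraries, 2.20 and 2.52 in the KO controls, and 0.548 and 0.467 in the Y402F controls. The KO controls were again above all other libraries, here by 4.65 times over the Y402F controls. KO lay below its controls by a log2 difference of -0.98 and Y402F above its controls by 0.86, without overlap in either case. The share of all genes that separate like this was not counted. The mutant values rest on 10, 16, 7 and 13 expected counts. The deposited Cufflinks intervals of the controls, in unscaled FPKM, were 0.792 to 3.81 and 0.610 to 4.66 in the KO controls and 0 to 1.77 and 0 to 1.53 in the Y402F controls, so they overlap. Alas2 passed the filter on low values with a mean of 1.25 FPKM and reached 1 scaled FPKM in only 4 of the 8 libraries.

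Relative to globin, Alas2 differed less among the mutants than between the control groups. For every 1000 scaled FPKM of globin there were 2.62 and 2.91 of Alas2 in KO, 2.34 and 2.90 in Y402F, 3.81 and 4.36 in the KO controls, and 1.81 and 1.48 in the Y402F controls. The mutant groups overlapped, and the control groups lay on either side of them. Its Pearson r with the log2 globin sum, with mutants and controls centred separately, was 0.96 over the 8 libraries.

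**Figure D3:**
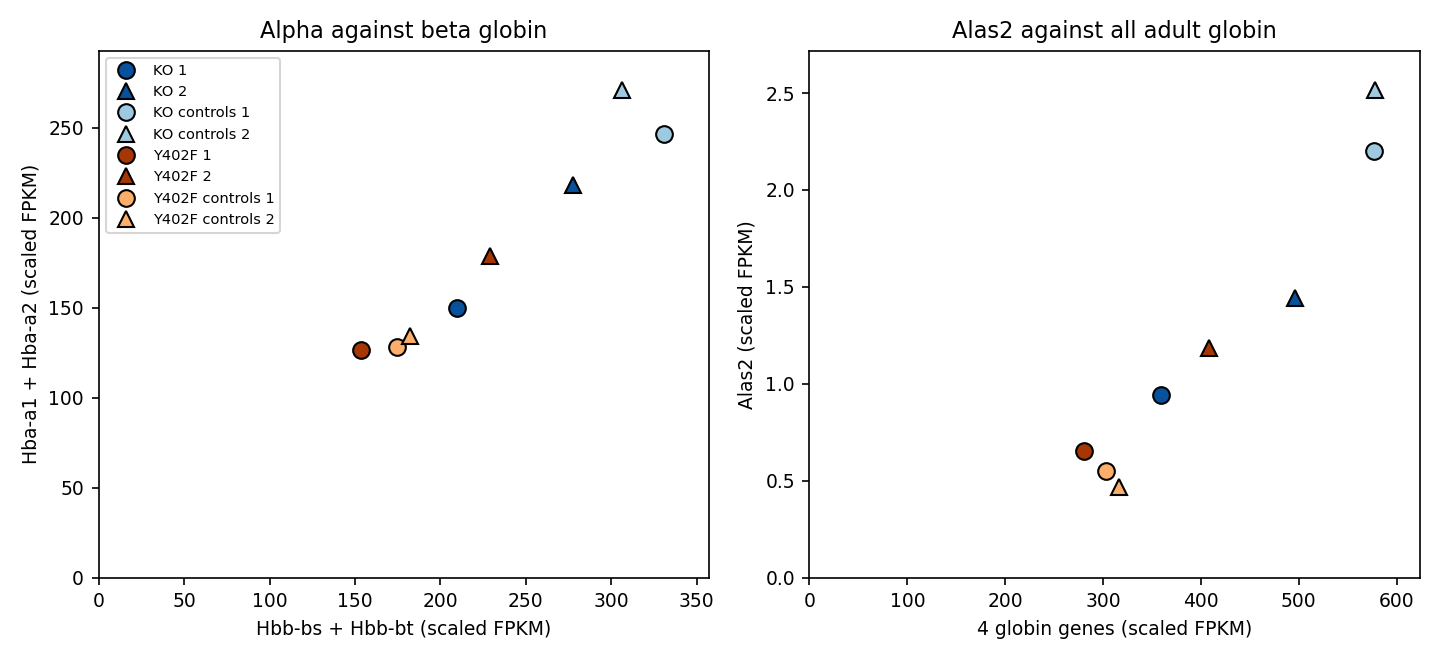
Left, summed alpha against summed beta globin, and right, Alas2 against the sum of the 4 globin genes, all in scaled FPKM, with one point for each of the 8 libraries (circles replicate 1, triangles replicate 2). The KO controls are at the upper right in both panels, and alpha stays between 0.715 and 0.884 of beta.

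The sequence just before each start site is shown as a description of the members. The alpha sum, the beta sum and Alas2 rose and fell together across libraries, although single copies did not. This was not particular to them, since 125 of 1930 other genes reached an r of 0.9 with the globin sum. Shared control of these genes was not tested. The 200 bases upstream of the RefSeq start (GRCm38.p6) are printed 5′ to 3′ on the gene's strand, with 4 short motifs in capitals where they occur on either strand. The motif GATAA is bound by GATA factors and CACCC by KLF1 and related factors. The motif CCAAT is a common promoter element, and the motif spelled ATATAA is one form of the TATA element. In Hbb-bt one CCAAT directly follows its own reverse complement. GENCODE places the start of each of these genes further upstream than RefSeq does, by least for Hba-a2.
Hba-a2, chr11:32296292-32296491, plus strand: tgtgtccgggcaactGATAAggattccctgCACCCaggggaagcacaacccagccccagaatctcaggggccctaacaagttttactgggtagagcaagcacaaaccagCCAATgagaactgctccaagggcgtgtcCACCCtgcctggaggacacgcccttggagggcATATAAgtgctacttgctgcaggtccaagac
Hbb-bs, chr7:103827929-103828128, minus strand: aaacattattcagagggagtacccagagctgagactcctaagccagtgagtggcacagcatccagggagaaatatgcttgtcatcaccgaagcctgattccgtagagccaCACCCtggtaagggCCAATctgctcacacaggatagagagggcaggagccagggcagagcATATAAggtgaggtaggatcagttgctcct
Hbb-bt, chr7:103813924-103814123, minus strand: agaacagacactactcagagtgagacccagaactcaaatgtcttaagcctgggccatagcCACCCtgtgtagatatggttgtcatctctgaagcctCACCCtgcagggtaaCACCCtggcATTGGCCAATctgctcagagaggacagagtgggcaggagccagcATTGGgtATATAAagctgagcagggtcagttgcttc
Alas2, chrX:150547217-150547416, plus strand: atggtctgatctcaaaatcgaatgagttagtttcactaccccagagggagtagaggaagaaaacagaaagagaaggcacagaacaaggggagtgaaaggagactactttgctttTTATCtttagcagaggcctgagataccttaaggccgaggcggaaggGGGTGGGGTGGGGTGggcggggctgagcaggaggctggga
The window of Hba-a1 holds the same letters as that of Hba-a2 with the start offset by 3 bases and no mismatch over 197 shared bases. The beta windows are identical in 70.4% of aligned columns. CACCC occurs in all 5 windows, ATATAA in the 4 globin windows, as does the motif CCAAT, and GATAA in the alpha and Alas2 windows. Among 32851 promoters of the same length, CACCC occurs in 45.5%, CCAAT in 29.3%, GATAA in 18.1% and ATATAA in 7.3%. A match describes the letters and does not show that a factor binds.

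Other globins were scarce, apart from cytoglobin. Cygb, a globin of fibroblast-like cells and some neurons, ran from 28.7 to 36.5 scaled FPKM, and neuroglobin (Ngb) from 0.223 to 3.02. Myoglobin (Mb) ran from 0 to 1.88, and the theta-like globins Hbq1a and Hbq1b from 0 to 0.699 and 0 to 1.46. The embryonic genes Hbb-y and Hbb-bh1 were listed above 0 only in KO controls, at no more than 0.339 unscaled FPKM, and Hba-x and Hbb-bh2 at 0 in every control. Of the 11 other globins listed, only Ngb and Cygb passed the filter of a mean of 1 FPKM, and neither was called in any comparison.

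The other genes of heme synthesis had several patterns. Alas1, the housekeeping form of the first enzyme, stood at 28.1 and 30.2 scaled FPKM in KO, 25.8 and 28.1 in Y402F, 58.9 and 56.8 in the KO controls and 74.7 and 63.5 in the Y402F controls. It was higher than Alas2 in all 8 libraries. Urod, uroporphyrinogen decarboxylase, stood at 23.6 and 28.3 in KO, 22.7 and 25.9 in Y402F, 57.9 and 44.8 in the KO controls and 19.9 and 26.0 in the Y402F controls. Tmem14c, a mitochondrial porphyrin transporter, stood at 24.8 and 32.1 in KO, 24.2 and 30.6 in Y402F, 39.4 and 41.03 in the KO controls and 25.9 and 23.9 in the Y402F controls. These 2 genes, like globin and Alas2, were higher in both KO controls than in the other 6 libraries. Alas1 was instead lower in all 4 mutants than in all 4 controls. How common either pattern was among all genes was not counted. Of 12 other heme synthesis genes tested, 1 was called higher and 5 lower in KO than in its controls, with a median log2 difference of -0.33, by limma at a Benjamini-Hochberg adjusted p below 0.05. Over all 12977 genes tested, 37.6% were called in this comparison, 16.6% higher and 21% lower, with a median of 0.00. Alas1 fell by 0.97 (SE 0.11, adjusted p = 0.00036). Alad, which joins aminolevulinate into porphobilinogen, fell by 1.17 (SE 0.15, adjusted p = 0.00056). Slc25a39, a mitochondrial carrier needed for heme synthesis, fell by 0.95 (SE 0.12, adjusted p = 0.00063). Cpox, coproporphyrinogen oxidase, rose by 0.73 (SE 0.12, adjusted p = 0.0017). Urod fell by 0.95 (SE 0.18, adjusted p = 0.0038) and Tmem14c by 0.50 (SE 0.16, adjusted p = 0.036), and these 2 are named here after their values were seen. The call of Tmem14c was lost without KO library 1 or either KO control. Fech, ferrochelatase, had a difference of -0.36 (SE 0.13, adjusted p = 0.059). Under equal totals Alas1, Alad, Slc25a39, Urod, Tmem14c and Fech turned positive, all below the 1.51 to which the median gene moved.

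Y402F against its controls gave the same counts in this list, 1 higher and 5 lower of 12, with a median of -0.50, while 32.3% of all genes were called, 13% higher and 19.3% lower, with a median of 0.00. Alas1 fell by 1.32 (SE 0.11, adjusted p = 7.3e-05) and Alad by 1.07 (SE 0.15, adjusted p = 0.00098). Slc25a39 fell by 0.73 (SE 0.12, adjusted p = 0.0029). Ppox, protoporphyrinogen oxidase, fell by 0.92 (SE 0.17, adjusted p = 0.0046), and Fech by 0.64 (SE 0.13, adjusted p = 0.0063). Under equal totals the median gene moved to 1.03, and Slc25a39, Ppox and Fech turned positive while Alas1 and Alad were no longer called.

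**Figure D4:**
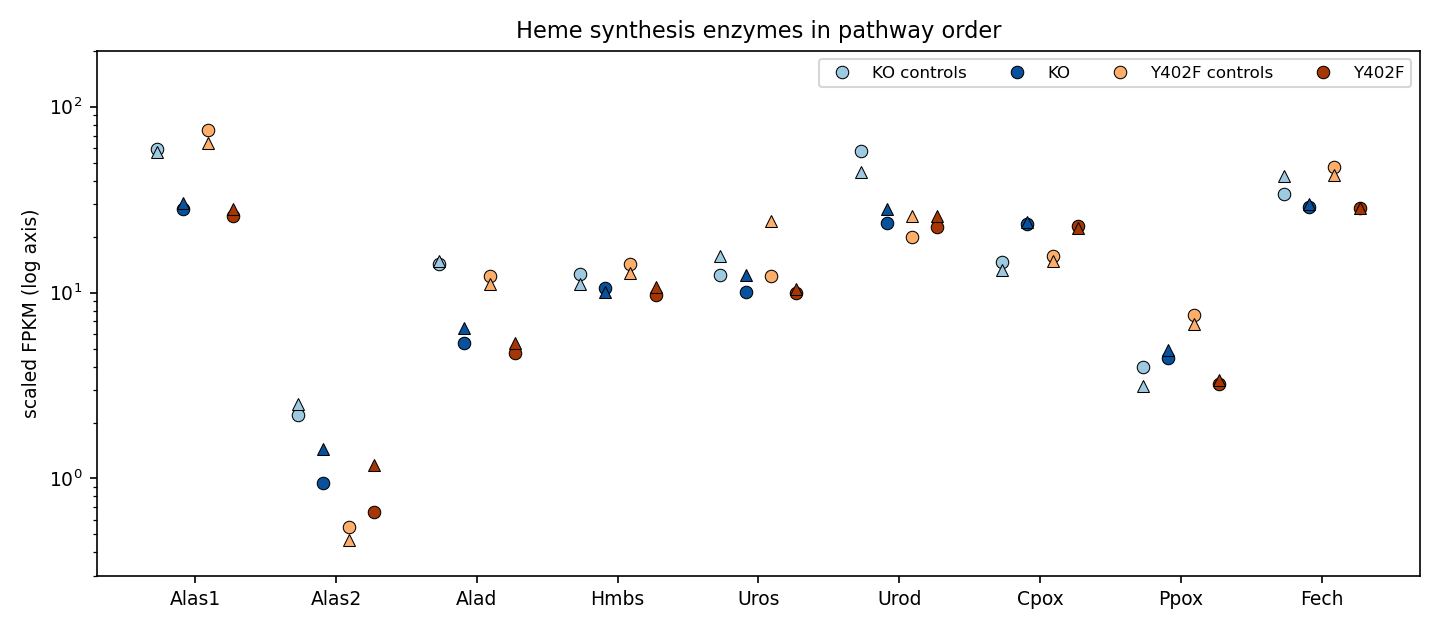
Scaled FPKM on a log axis of the enzymes of heme synthesis in the order of the pathway, with Alas1 and Alas2 both serving its first step; colours are the 4 groups, circles replicate 1 and triangles replicate 2. Alas2 is highest in the KO controls, whereas Alas1 and Alad lie lower in all 4 mutants than in all 4 controls, a direction that depends on the scaling (Alas1 in KO and Alad in KO turn positive under equal totals).

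Between the control groups, where globin differed most, 2 of the 12 heme synthesis genes were called higher and 1 lower in the KO controls. Among all genes tested, 4.87% were called higher and 3.19% lower. Urod was higher by 1.13 (SE 0.18, adjusted p = 0.016), and Tmem14c by 0.67 (SE 0.16, adjusted p = 0.039). The deposited Cufflinks intervals of Urod, in unscaled FPKM, were 23.7 to 97.3 and 13.6 to 80.1 in the KO controls. In the Y402F controls they were 0 to 42.3 and 5.68 to 48.9, so the intervals of Urod overlap, while those of Tmem14c do not. Ppox was lower, with a difference of -0.85 (SE 0.17, adjusted p = 0.030). Alas1 had a difference of -0.25 (adjusted p = 0.20) and Fech of -0.24 (adjusted p = 0.26), against 2.22 for Alas2. Each of these 3 calls was lost without at least 1 of the 4 control libraries. In KO against Y402F, none of the 12 was called by edgeR's quasi-likelihood test, beside 0.00771% of all genes, and none had an unadjusted p below 0.05. The smallest p-values there belonged to Ppox, with a log2 difference of 0.49, and Alad, with 0.23, both at an adjusted p of 1.0.

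Genes of heme breakdown and transport include heme oxygenases, biliverdin reductases and heme carriers. Of 11 tested, 1 was called higher and 4 lower in KO than in its controls, beside 16.6% higher and 21% lower among all genes. Hebp1, a cytosolic heme-binding protein, fell by 1.42 (SE 0.17, adjusted p = 0.00044), and Lrp1, the receptor for hemopexin-bound heme among other ligands, by 1.00 (SE 0.12, adjusted p = 0.00032). Slc46a1, a folate carrier that also moves heme, fell by 0.98 (adjusted p = 0.0043), and Blvra, biliverdin reductase A, by 0.60 (adjusted p = 0.030). The call of Blvra was lost without any one of the 4 libraries compared. In Y402F, 0 were called higher and 2 lower, beside 13% and 19.3% of all genes. They were Lrp1 at -1.16 (SE 0.12, adjusted p = 0.00016) and Hebp1 at -1.18 (SE 0.17, adjusted p = 0.0013). Hmox1, the inducible heme oxygenase, ran from 2.82 to 4.71 scaled FPKM over the 8 libraries. Hp and Hpx, which encode the plasma scavengers haptoglobin and hemopexin, stayed at or below 0.361.

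Iron genes were led by ferritin and transferrin. Of 16 tested, 0 were called higher and 4 lower in KO than in its controls, a share of calls below the 37.6% of all genes. In Y402F, 1 was called higher and 2 lower, beside 32.3% of all genes. Fth1, ferritin heavy chain, fell by 1.10 (SE 0.08, adjusted p = 3.2e-05), and Trf, transferrin, by 1.30 (SE 0.12, adjusted p = 9.6e-05). Cp, the ferroxidase ceruloplasmin, fell by 1.06 (adjusted p = 0.019), and Slc11a2, a divalent metal transporter, by 0.40 (adjusted p = 0.041). The call of Slc11a2 was lost without any one of the 4 libraries, and that of Cp without either KO library or KO control 1. In Y402F, Trf fell by 0.93 (adjusted p = 0.00065) and Fth1 by 0.62 (adjusted p = 0.00073), while Ftl1, ferritin light chain, rose by 0.77 (SE 0.16, adjusted p = 0.0080). Between the control groups Fth1 and Trf were higher in the KO controls, by 0.60 (adjusted p = 0.011) and 0.65 (adjusted p = 0.022), the same side as globin. Under equal totals Fth1 and Trf turned positive in both mutant comparisons, and Fth1 turned to -0.029 between the controls. After quantile normalization Fth1 had a difference of 0 in all of these comparisons. Tfrc, the transferrin receptor, ran from 12.6 to 29.8 scaled FPKM without separating the groups.

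Slc4a1 and Klf1, which mark red cells and their precursors, were close to 0 even where globin was high. Slc4a1, the anion exchanger band 3, was at most 0.0612 scaled FPKM in any library. Klf1, an erythroid transcription factor, reached 0.243, in a mutant. Of 27 genes listed for the red cell membrane and enzymes, 14 passed the filter and 9 stayed under 1 scaled FPKM in every library. Of the 14 tested, 2 were called higher and 2 lower in KO, and 3 higher and 1 lower in Y402F, which is near the 37.6% and 32.3% called among all genes. Ank1, ankyrin of red cells and neurons, fell by 1.56 in KO (adjusted p = 0.0027) and by 1.19 in Y402F (adjusted p = 0.011). Sptb, beta spectrin, rose by 0.50 in KO (adjusted p = 0.025) and 0.69 in Y402F (adjusted p = 0.0073). Gypc, glycophorin C, rose by 0.75 in KO (adjusted p = 0.021), and Car2, carbonic anhydrase 2, fell by 0.32 (adjusted p = 0.018). Prdx2, peroxiredoxin 2, and Bnip3l, a mitophagy receptor, rose in Y402F by 0.42 (adjusted p = 0.028) and 0.49 (adjusted p = 0.048). Prdx2 was higher by 0.82 (adjusted p = 0.013) and Car2 by 0.37 (adjusted p = 0.038) in the KO controls than in the Y402F controls. In KO, the call of Gypc was lost without any one of the 4 libraries, that of Car2 without either KO library or KO control 1, and that of Sptb without KO library 2 or KO control 1. In Y402F, the call of Bnip3l was lost without any one library, that of Ank1 without either Y402F library or Y402F control 1, that of Prdx2 without Y402F library 2 or Y402F control 2, and that of Sptb without Y402F library 2. Under equal totals Ank1 and Car2 turned positive in KO, and Car2 turned to -0.25 between the controls.

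Of 6 erythroid regulators tested, 2 were called higher and 0 lower in each mutant, near the 37.6% (KO) and 32.3% (Y402F) called among all genes. They were Eif2ak1, the heme-regulated kinase that restrains globin translation, at 0.72 in KO (adjusted p = 0.0033) and 0.67 in Y402F (adjusted p = 0.0055), and Bcl11a, a repressor of fetal globin that is also expressed in neurons, at 0.30 (adjusted p = 0.035) and 0.38 (adjusted p = 0.017). The call of Bcl11a was lost without any one library in KO, and without Y402F library 2 or Y402F control 2 in Y402F. Lmo2, a partner of erythroid GATA factors that endothelial cells also express, was higher in the KO controls than in the Y402F controls by 0.94 (adjusted p = 0.050).

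Over all 57 heme, iron and red cell genes tested, the 5 members left out, 6 were called higher and 15 lower in KO, with a median log2 difference of -0.12, and 7 higher and 10 lower in Y402F, with a median of 0.03. Both counts are near the 37.6% and 32.3% called among all genes. Between the control groups 7 were called higher in the KO controls and 1 lower. That is 8 of 57 against 8.06% of all genes tested, and each of the 8 calls was lost without at least 1 control library, 1 to 2 genes being called with 1 such library left out. In KO against Y402F, 0 of 57 were called by edgeR and 0 by DESeq2, and 0 had an unadjusted p below 0.05. For the difference between the KO and the Y402F effect, limma called 0 of 57, with 6 at an unadjusted p below 0.05, beside 0.0308% of all genes. The number called was 12 of 57 under equal totals, where 3547 of all 12977 genes were called. With a term for the Ddx3y pattern it was 1 of 57, beside 138 of all 12977 genes.

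Other blood cells left little trace. Neutrophil genes summed to 8.13 to 9.58 scaled FPKM in the mutants and 5.20 to 7.08 in the controls, and lymphocyte genes to 1.12 to 4.49 over all libraries. S100a8 and S100a9, the abundant neutrophil calgranulins, reached 1.87 and 2.58, and S100a8 was absent from the table of KO library 1, which lists only genes above 0, and listed at 0 in both KO controls. The largest part of the neutrophil sum in each mutant was Cxcr2, a chemokine receptor, which ran from 4.24 to 6.73 there and from 0 to 0.0467 in the controls. Cxcr2 was called higher in KO by 2.69 (SE 0.23, adjusted p = 7.1e-05). It was also called higher in Y402F, where both controls were listed at 0 (adjusted p = 0.00010). No other neutrophil gene was called, but only 3 neutrophil genes and 1 lymphocyte gene were tested. Of 4 platelet genes tested, 1 was called higher and 2 lower in each mutant, beside 37.6% (KO) and 32.3% (Y402F) of all genes. Pf4 (platelet factor 4) fell by 2.21 in KO (SE 0.30, adjusted p = 0.00081), and Itga2b, integrin alpha IIb, by 1.55 in Y402F (SE 0.30, adjusted p = 0.0055). These rest on 1 and 0 expected counts of Pf4 in KO and 4 and 4 of Itga2b in Y402F. The Cufflinks intervals, in unscaled FPKM, were 0 to 7.78 and 0.805 to 10.6 for Pf4 in the KO controls. For Itga2b in the Y402F controls they were 0 to 4.27 and 1.02 to 6.31. Gp1bb, a subunit of the von Willebrand factor receptor, rose by 1.75 in KO (adjusted p = 0.0049) and 2.05 in Y402F (adjusted p = 0.0026). Nrgn, which is abundant in neurons, fell by 0.63 (adjusted p = 0.0011) and 0.73 (adjusted p = 0.00057), and turned positive under equal totals. Lck, a T cell kinase, fell by 1.09 in KO (adjusted p = 0.041), a call that was lost without any one of the 4 libraries.

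The summed vessel level varied less than the globin sum. Some single vessel genes, such as Acta2 and Kcnj8, varied more than the globin sum, and others, such as Cldn5, varied less. The sum of 21 endothelial and mural genes ran from 304 to 356 scaled FPKM, with 351 to 356 in the KO controls, 304 to 324 in the Y402F controls, 307 to 336 in KO and 305 to 350 in Y402F. In both mutant groups and in the controls, the libraries with more globin had the larger vessel sum, except that the 2 KO controls were alike in globin. Cldn5, the tight junction protein of brain endothelium, ran from 13.3 to 20.2 scaled FPKM and was highest in the KO controls at 20.2 and 17.5. Acta2, smooth muscle actin of mural cells, ran from 7.10 to 22.9 and was highest in the KO controls, and Kcnj8, a pericyte potassium channel subunit, ran from 0.449 to 2.20. In KO, 2 of the 21 were called higher and 2 lower, beside 37.6% of all genes. Acta2 fell by 1.30 (SE 0.18, adjusted p = 0.00089) and Ly6c1, an endothelial surface protein, by 0.43 (adjusted p = 0.020), while Abcc9, a partner of Kcnj8, rose by 0.71 (adjusted p = 0.044) and Kdr, a VEGF receptor, by 0.64 (adjusted p = 0.045). In Y402F, 3 were called higher and 1 lower, beside 32.3% of all genes. Kcnj8 rose by 0.81 (adjusted p = 0.045), Pltp by 0.52 (adjusted p = 0.024) and Itm2a by 0.41 (adjusted p = 0.016), and Ly6c1 fell by 0.41 (adjusted p = 0.026). Between the control groups, Acta2 alone was called, higher by 0.76 in the KO controls (SE 0.18, adjusted p = 0.042). Each of these calls except that of Acta2 in KO was lost without at least 1 of the libraries compared. Under equal totals Acta2 in KO and Ly6c1 in both mutants turned positive.

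Choroid plexus genes were high in 3 libraries. They summed to 762 in Y402F library 2 and 1157 and 1186 in the Y402F controls, and to 42.4 to 56.6 in the other 5 libraries. Ttr (transthyretin), made by the choroid plexus, stood at 656, 1015 and 1032 in the former and 1.19 to 10.2 in the latter. Thus the controls with the least globin had the most choroid plexus RNA, whose part in the globin level was not tested. Of 8 tested, 4 were called lower in Y402F than in its controls, beside 19.3% of all genes. They were the channel subunits Kcnj13 (by -1.62, adjusted p = 0.013) and Kcne2 (-1.25, adjusted p = 0.038), the folate receptor Folr1 (-1.67, adjusted p = 0.017) and Enpp2, autotaxin (-1.09, adjusted p = 0.038). Each of these 4 calls was lost without at least 1 of the libraries compared. In the KO controls 6 of 8 were called lower than in the Y402F controls, beside 3.19% of all genes. Among them were Kcnj13 (-2.05, adjusted p = 0.022), Kcne2 (-2.003, adjusted p = 0.024), Enpp2 (-1.64, adjusted p = 0.029) and Kl (-1.23, adjusted p = 0.035). None was called by limma in KO, where 1 had an unadjusted p below 0.05.

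Of the 12 hippocampal neuron markers, 7 were called higher and 1 lower in KO, beside 16.6% and 21% of all genes. In Y402F, 5 were called higher and 0 lower, beside 13% and 19.3%. Differences were positive for 9 of the 12 in each mutant. Zbtb20 was lower, with means of 2.79 scaled FPKM in KO against 6.84, and 3.67 in Y402F against 5.66 in its controls. Grin1 was lower in Y402F, at 143 against 172. Nrgn, abundant in neurons but listed with platelet genes, also fell in both mutants. Neurod2, a neuronal transcription factor, rose by 0.65 in KO (adjusted p = 0.00064) and 0.32 in Y402F (adjusted p = 0.021), and Neurod6, its relative, by 0.53 (adjusted p = 0.0091) and 0.54 (adjusted p = 0.0094). Camk2a, the calcium/calmodulin-dependent kinase subunit, rose by 0.32 in KO (adjusted p = 0.0094) and 0.42 in Y402F (adjusted p = 0.0028). Prox1, which marks dentate granule cells, rose by 0.75 in KO (adjusted p = 0.0026), and C1ql2 by 0.47 in Y402F (adjusted p = 0.013). Prox1 and Neurod2 were lower in the KO controls than in the Y402F controls, with differences of -0.82 (adjusted p = 0.016) and -0.47 (adjusted p = 0.021). The calls of Neurod6 and Camk2a in KO, those of C1ql2 and Neurod2 in Y402F and both between the controls were lost without at least 1 of the libraries compared. The part of neuron content in the globin level was not tested.

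**Figure D5:**
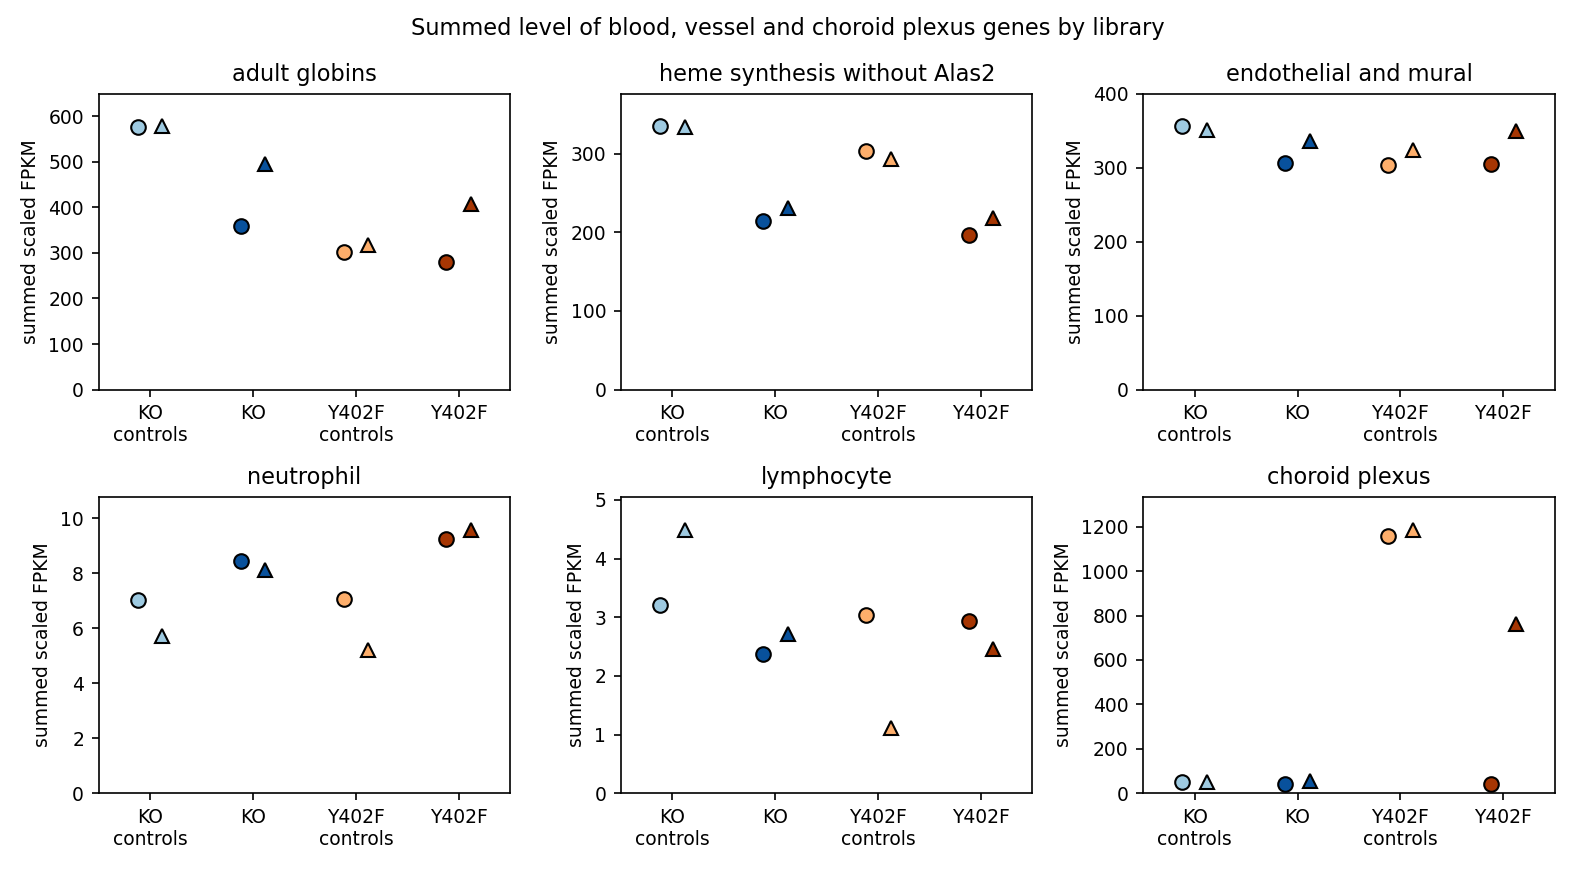
Summed scaled FPKM (vertical axes, from 0) of the adult globins, the heme synthesis genes without Alas2, and marker lists of vessels, neutrophils, lymphocytes and choroid plexus, by group; circles are replicate 1 and triangles replicate 2. Vessel genes stay between 304 and 356 while globin ranges from 281 to 578, and choroid plexus genes are high in Y402F library 2 and both Y402F controls.

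The genes whose pattern was most like that of the globin sum were not blood genes. Likeness was the Pearson r with log2 of the globin sum over the 8 libraries, with mutants and controls centred separately, among 1930 genes that varied by a centred SD of at least 0.3. The 10 closest, with r from 0.98 to 0.99, were Ydjc, Fdx2, Fau, Ndufs8, Ggact, Ndufa7, Rpl32, Mbp, Commd1 and Rpl8. In all, 125 genes reached an r of 0.9. Mbp, myelin basic protein, stood at 2169 and 2643 scaled FPKM in KO, 1923 and 2279 in Y402F, 3501 and 3629 in the KO controls and 2118 and 2127 in the Y402F controls. Rpl32, a ribosomal protein gene, stood at 249.9 and 280.1 in KO, 189 and 269 in Y402F, 289 and 279 in the KO controls and 169 and 178 in the Y402F controls. Both were higher in library 2 of each mutant group and in the KO controls, as globin was. By the same measure r was 0.96 for Tmem14c, 0.89 for Urod, 0.77 for Cldn5, -0.23 for Tfrc, -0.39 for Alas1, -0.44 for Ttr and -0.52 for Fech.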

How the data were processed

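Hippocampal RNA of 8 libraries was analysed from the deposited tables. The submitters' processing notes name Bowtie 1, HISAT and mm9 for every library, and Cufflinks for controls. Gene positions in the control tables match GRCm38 instead: GENCODE M21 has the same start or end for 99.8% of 17708 genes. The authors deposited expected counts and FPKM for mutants (genes above 0 only, the others being taken as 0) and FPKM with confidence bounds for controls. Transcript lengths were not used. No source used here names the program behind the expected counts.

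Of 18022 genes listed in mutants, 17629 were matched by symbol and 89 by Entrez number. FPKM were divided by median-of-ratios factors. Log2(scaled FPKM + 1) of the 12977 genes averaging 1 FPKM or more was fitted with limma 3.58.1 (trend, 4 residual degrees of freedom); fold changes understate those of low genes. KO against Y402F used edgeR 4.0.16 (quasi-likelihood, TMM) on rounded expected counts. A call is an adjusted p (Benjamini-Hochberg, all genes) below 0.05. Differences of the hemoglobin genes, Alas2 and their sums are log2 ratios of group means. The members and gene lists were chosen with earlier results of these data known. Named were the members, other globins, of each list all called genes or the 4 with the smallest p, and 9 fixed genes (Alas1, Fech, Tfrc, Slc4a1, Hmox1, S100a8, S100a9, Cldn5, Ttr). On simulated data limma recovered 99% of 100 genes changed 2-fold in KO against KO controls (12977 genes), and edgeR 91% of 100 in KO against Y402F (12969 genes). The changed genes were drawn from well-expressed genes only, and the spread between replicates was preset rather than taken from these libraries. These rates therefore check the fitting and do not give the power of the comparisons in the real libraries. Promoters are RefSeq's (GRCm38.p6).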

Additional observations from a re-analysis of the deposited data

Results flagged for a closer look

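Alas2 moved in opposite directions in the 2 lines. Both KO libraries lay below both KO controls (log2 ratio -0.98) and both Y402F libraries above both Y402F controls (0.86), a difference of effects of -1.84. This difference was not tested, because Alas2 was chosen with these values known. The Alas2 levels rest on 7 to 16 expected counts in the mutants, and the control groups themselves differed by 2.22. How many of all genes separate from their controls in this way was not counted.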

How the results depend on the processing

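Alternatives were run one at a time. Rescaling to equal totals over matched genes moved the median tested gene to 1.51 (KO), 1.03 (Y402F), -0.51 (KO controls against Y402F controls) and 0.51 (difference of effects); Bc1 alone held 53.1 to 67.7% of the matched FPKM in controls and 3.11 to 5.35% in mutants. Under it the globin sum differed by 1.39, 1.35, 0.27 and 0.039. The heme, iron and red cell genes called numbered 55, 46, 26 and 12 of 57. Among all 12977 genes tested, 11759, 10351, 6793 and 3547 were called under equal totals, so most of the rise was shared by genes at large. The genes that turned sign under it all lay on the side of the median gene that they had in the text. In KO against controls they were Alas1 0.81, Alad 0.47, Slc25a39 0.83, Lrp1 0.78, Hebp1 0.37, Slc46a1 0.66, Blvra 1.02, Fth1 0.72, Trf 0.51, Cp 0.42, Slc11a2 1.30, Ank1 0.14, Car2 1.48, Nrgn 1.19, Fech 1.40, Urod 0.82, Tmem14c 1.27, Acta2 0.39 and Ly6c1 1.37. In Y402F they were Slc25a39 0.45, Ppox 0.073, Lrp1 0.017, Hebp1 0.00074, Trf 0.26, Fth1 0.58, Nrgn 0.47, Fech 0.53, Ly6c1 0.77 and Enpp2 0.098, and between controls Fth1 -0.029 and Car2 -0.25.

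Quantile normalization gave a globin sum of -0.15 in KO and 0.77 between controls, where alpha alone gave 0.98 and beta alone 0.84. Between controls the 8 calls became 4 without a filter, 3 with quantile normalization, 2 without trend and 2 with only those 4 libraries. In the same settings the calls among all genes went from 1046 to 514, 738, 165 and 383. A term for the Ddx3y pattern gave 1 call for the difference of effects, beside 138 of all 12977 genes. It ended 8 of 15 calls of named genes between controls (Ppox, Trf, Car2, Lmo2, Kcnj13, Kcne2, Enpp2 and Kl). It also ended 2 in KO (Blvra and Lck) and 4 in Y402F (Bnip3l, Folr1, Kcne2 and Enpp2). Ddx3y does not vary within either control group, so the term is set by the mutant libraries alone. Between controls the heme, iron and red cell calls still numbered 8, and those of all genes went from 1046 to 1285. The cause of the lost calls was not tested.

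Without single libraries the globin sum ran from -0.68 to -0.22 in KO, -0.14 to 0.40 in Y402F, 0.87 to 0.93 between controls, 0.06 to 0.61 in KO against Y402F and -0.84 to -0.29 for the difference of effects. The calls ran from 13 (without KO replicate 1) to 17, from 12 to 17, from 1 to 2, and 0 for the last 2. A lone library was assumed to vary like the other groups. Of 33 named genes called in KO, 19 stayed called without any one library (not Abcc9, Bcl11a, Blvra, Camk2a, Car2, Cp, Gypc, Kdr, Lck, Ly6c1, Neurod6, Slc11a2, Sptb or Tmem14c). In Y402F it was 17 of 32 (not Ank1, Bcl11a, Bnip3l, C1ql2, Enpp2, Folr1, Itm2a, Kcne2, Kcnj13, Kcnj8, Ly6c1, Neurod2, Pltp, Prdx2 or Sptb), and between controls 0 of 15.

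Replicate numbers are shared labels, not a stated pairing. With the replicate number as a block, 21, 17, 10, 0 and 0 heme, iron and red cell genes were called in the 5 comparisons, against 21, 17, 8, 0 and 0 without the block, and Abcc9 lost its call in KO and Bnip3l and Kcnj8 theirs in Y402F.

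Adding Hbb-b1 and Hbb-b2 was not run, since neither is listed above 0 in a table used here, and restricting the difference of effects to its libraries leaves all 8. The depth of the controls is unknown.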
